A study of Mus musculus with 6 samples.

Results

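The AP-1 and EGR immediate early factors described here are 10 genes chosen by symbol from the 34199 gene symbols counted in each library. They comprise the FOS genes Fos, Fosb and Fosl2, the JUN genes Jun, Junb and Jund, the stress-induced relative Atf3, the zinc finger genes Egr1 and Egr2, and Ier2. All 10 had reads in every library. Of the 12460 genes with enough reads to be tested, 9 were members. Fosb was left out because it held between 3 and 16 reads per library.

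The series measured mRNA by sequencing in iGMPs, which are granulocyte-macrophage progenitors immortalized by HOXA9. They are C57Bl/6 mouse bone marrow cells that carry HOXA9 fused to the ligand-binding domain of an estrogen receptor and a GFP reporter driven by the lysozyme promoter (Lys-GFP). All groups were collected at 24 h, carried the fusion and grew in stem cell factor (SCF) supplied as conditioned medium, with 2 libraries per group. CAF-1 OFF cells were kept in 150 ng/ml estradiol with 500 µM IPTG, which induces a short hairpin RNA against Chaf1b. The protein it encodes is part of CAF-1, a histone chaperone that deposits histones on newly made DNA. Control cells were kept in estradiol and also received IPTG. The study's control lines carry an inducible vector with a spacer in place of the Chaf1b hairpin, though the labels of these libraries name no vector. CAF-1 OFF and control may therefore differ in vector and clone as well as in CAF-1, and these cannot be told apart. HOXA9 OFF cells were rinsed with PBS 2 times and grown with no estradiol, so that the HOXA9 fusion was switched off. The hairpin lines were established as clones, and the labels do not say which clone gave which library, whether HOXA9 OFF cells received IPTG, or whether the libraries of a group came from separate cultures. HOXA9 OFF and control therefore differed in the washes and possibly in IPTG as well as in estradiol, and these cannot be told apart. The p-values measure the spread between these libraries, which may be technical.

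Immediate early genes are switched on within minutes of a stimulus, without new protein synthesis, by factors already present in the cell such as SRF with its ELK partners and CREB. The proteins they encode are themselves mostly transcription factors. FOS and JUN proteins pair to form AP-1, which binds the element TGANTCA, whereas JUN proteins can also pair with one another and ATF3 with JUN proteins. EGR proteins bind a GC-rich element. In myeloid cells, JUN and EGR1 are known for their association with monocyte and macrophage differentiation, and growth factors such as SCF drive these genes through the RAS and ERK kinase cascade.

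Promoter sequences are shown for Fos, Fosl2 and Jun, the members with the largest called differences between HOXA9 OFF and control. They were taken from RefSeq on the GRCm38.p6 build and run from 250 bases before to 50 bases after the annotated start, read 5′ to 3′ on the strand of the gene. Of the 10 members, 8 had an entry in the promoter set used here, and Egr1 and Ier2 did not. Capitals mark exact matches, on either strand, to any of 5 motifs. These were the CArG box bound by SRF, the cyclic AMP response element TGACGTCA, the shorter TGACG, which lies within it, the AP-1 element TGANTCA and the EGR element GCGNGGGCG.
Fos (chr12:85473640-85473939, plus strand): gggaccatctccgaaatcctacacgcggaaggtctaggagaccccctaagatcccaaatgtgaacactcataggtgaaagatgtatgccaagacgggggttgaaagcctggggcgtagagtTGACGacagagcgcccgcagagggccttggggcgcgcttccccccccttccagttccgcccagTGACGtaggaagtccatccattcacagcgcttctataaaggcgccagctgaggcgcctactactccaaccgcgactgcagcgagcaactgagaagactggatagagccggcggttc
Fosl2 (chr5:32136222-32136521, plus strand): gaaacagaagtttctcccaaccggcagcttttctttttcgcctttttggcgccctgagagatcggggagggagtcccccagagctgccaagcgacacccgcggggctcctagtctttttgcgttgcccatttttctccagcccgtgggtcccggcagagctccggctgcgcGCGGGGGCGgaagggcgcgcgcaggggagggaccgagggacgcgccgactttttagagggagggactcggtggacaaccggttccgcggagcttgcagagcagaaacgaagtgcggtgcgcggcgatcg
Jun (chr4:95052173-95052472, minus strand): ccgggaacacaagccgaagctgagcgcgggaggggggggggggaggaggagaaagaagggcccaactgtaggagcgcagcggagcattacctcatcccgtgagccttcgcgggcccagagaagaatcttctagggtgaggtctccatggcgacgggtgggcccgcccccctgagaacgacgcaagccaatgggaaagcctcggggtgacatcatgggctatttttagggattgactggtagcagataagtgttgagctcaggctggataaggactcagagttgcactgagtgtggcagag

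The Fos window held TGACG at bases -129 and -66 from the start, and the Fosl2 window held 1 EGR element at base -79. Jun held no match to the 5 motifs, and the same was true of Jund. Among the members not shown, Junb had TGACG at -106, Atf3 had it at -7, and Fosb had TGACG at -60 and an EGR element at -50. Egr2 has 5 annotated starts, and 4 of them had a CArG box, at -72, -72, -73 and -133. The last 3 windows begin at chr10:67537619, 67537620 and 67537680 and overlap. Their boxes, at -72, -73 and -133, are therefore 1 stretch of DNA. In those 3 windows TGACG also matched at a pair of places, at -111 and -55, at -112 and -56, and at -172 and -116. These too are 1 pair of sites. For comparison, a CArG box was present in 1.63% of 32851 promoters of the same length, TGACGTCA in 1.79%, TGACG in 20.8%, TGANTCA in 7.81% and GCGNGGGCG in 5.55%. No member window other than those of Egr2 held a CArG box, and none held TGACGTCA or TGANTCA. These matches are descriptions of letters in a short window, and the data contain no measure of binding there.

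The target of the hairpin was examined first as a check of the labels. Chaf1b was at 12.1 and 17.8 CPM in the CAF-1 OFF libraries, where CPM are read counts scaled to a common library size and composition. Its range was 90.0 to 105.1 CPM in control and 61.4 to 64.6 CPM in HOXA9 OFF. Libraries held between 16773560 and 25170898 reads in genes, and 3 reads, taken as the detection floor, corresponded to between 0.118 and 0.182 CPM. The 10 progenitor and myeloid markers examined were detected in all groups, with Mpo the most abundant. In HOXA9 OFF against control, 4 of them were lower and 1 was higher in the edgeR test. Flt3 was at 4.24 ± 1.10 against 283 ± 65.1 CPM, Cd34 at 495 ± 16.1 against 1801 ± 5.87 CPM, Kit at 281 ± 26.4 against 626 ± 118 CPM and Ctsg at 2030 ± 65.9 against 3244 ± 44.4 CPM. The one that rose was Sfpi1, which encodes the myeloid factor PU.1.

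In control iGMPs the members spanned a wide range of levels. On the scale of CPM per kilobase of exon, which allows different genes to be compared, Ier2 was highest at 42.2 ± 2.96 (SD, n = 2), above 85.5% of the tested genes that have a length. Junb followed at 13.4 ± 0.293 and Jund at 9.39 ± 0.476, so the JUN genes known to be broadly expressed were ahead of Jun itself at 1.77 ± 0.0878. Among the FOS genes, Fosl2 was at 6.50 ± 1.32 and Fos at 3.14 ± 0.707. Egr1 was at 1.40 ± 0.0680, Atf3 at 0.951 ± 0.310, Egr2 at 0.333 ± 0.0846 and Fosb at 0.0860 ± 0.0560. No neighbours in this order had overlapping control libraries. Among the 6 FOS and JUN genes, Junb, Jund and Fosl2 thus held the 3 highest levels in control iGMPs.

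**Figure D1:**
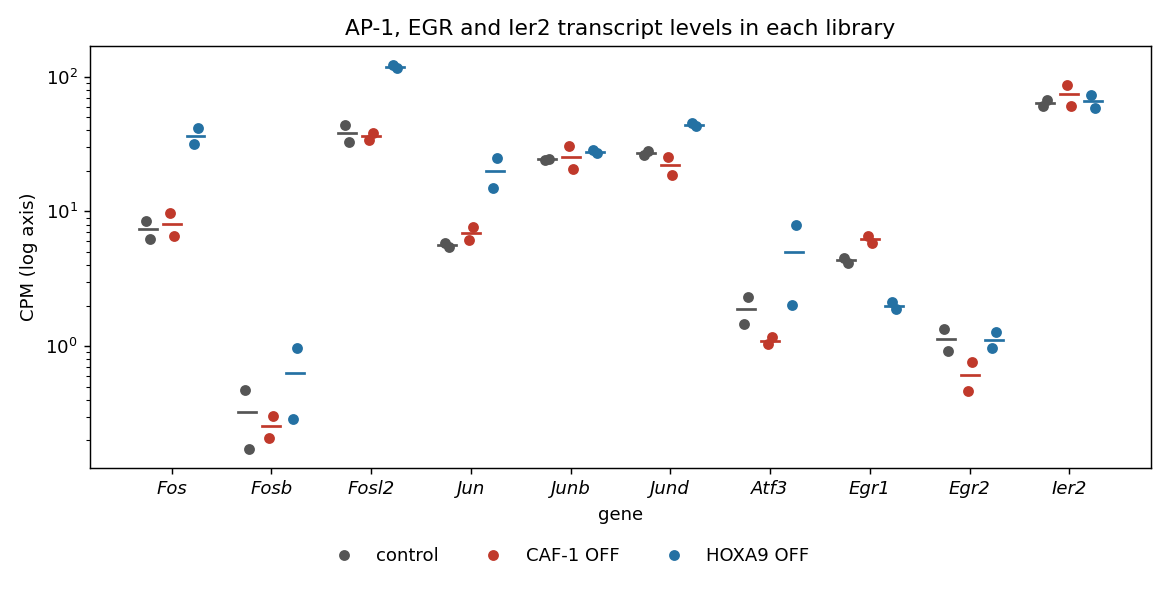
CPM of each member (horizontal axis) in each library on a log axis, with control in grey, CAF-1 OFF in red and HOXA9 OFF in blue, points for libraries and short lines for the mean of 2. Both HOXA9 OFF libraries lie above the other 4 for Fos, Fosl2, Jun and Jund and below them for Egr1, whereas Ier2 lies between 58.4 and 87.4 CPM in all 6.

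After estradiol withdrawal, 4 members rose and 1 fell relative to control among the 9 tested. Fos, Fosl2, Jun and Jund were higher and Egr1 was lower. A gene was called at a change of at least 1.5-fold and a false discovery rate (FDR, Benjamini-Hochberg) below 0.05 in edgeR's quasi-likelihood test. Over all genes tested, 13% were called higher and 8.97% lower in HOXA9 OFF. The median log2 fold change was 0.71 over the 9 members and 0.00 over all genes tested.

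Fos, the prototype FOS subunit, had the largest increase. It was at 31.4 and 41.7 CPM in the HOXA9 OFF libraries and at 8.56 and 6.21 CPM in the controls. Every HOXA9 OFF value lay above every control value, and the difference was 4.92-fold (log2 fold change 2.30 ± 0.27 SE, edgeR FDR = 0.00196). Fosl2, which encodes FRA-2, a FOS relative without the strong activation domain of FOS, was at 121.8 and 115.5 CPM against 43.5 and 32.6 CPM in control. Its libraries did not overlap either, and it was 3.11-fold higher (log2 fold change 1.64 ± 0.16, edgeR FDR = 0.00114). Fosb was at 0.289 and 0.970 CPM in HOXA9 OFF and at 0.471 and 0.174 CPM in control. These values overlapped and rest on 6 and 16 reads against 12 and 3.

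Among the JUN genes, Jun, the strongest activator of the family, was at 15.1 and 24.8 CPM in HOXA9 OFF and at 5.85 and 5.46 CPM in control. The groups did not overlap, with a 3.51-fold difference (log2 fold change 1.81 ± 0.28, edgeR FDR = 0.00471). Jund, a largely constitutive JUN gene, was at 45.3 and 43.0 CPM against 26.0 and 28.0 CPM. It was 1.64-fold higher (log2 fold change 0.71 ± 0.17, edgeR FDR = 0.0209) and lost the call in each of the 4 fits that left out a control or HOXA9 OFF library, with edgeR FDR between 0.0669 and 0.112. Junb, often an antagonist of JUN, was at 28.8 and 26.9 CPM in HOXA9 OFF and at 23.9 and 24.7 CPM in control. Both HOXA9 OFF libraries were above both controls, yet the log2 fold change of 0.20 ± 0.20 did not pass the test (edgeR FDR = 0.491).

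Egr1 went the other way. It was at 2.12 and 1.88 CPM in HOXA9 OFF and at 4.48 and 4.18 CPM in control, with 44 and 31 reads against 114 and 72. The groups did not overlap, and Egr1 was 2.16-fold lower (log2 fold change -1.11 ± 0.26, edgeR FDR = 0.0197). As for Jund, the call was lost in each of the 4 fits without a control or HOXA9 OFF library, with edgeR FDR between 0.0737 and 0.0982. Egr2, the second EGR gene, was at 0.965 and 1.27 CPM in HOXA9 OFF and at 1.34 and 0.929 CPM in control, overlapping, and its log2 fold change was -0.04 ± 0.45 (edgeR FDR = 0.963). The ratio of Fos to Egr1 reads within a library does not depend on how libraries are scaled. Fos had 14.8 and 22.2 reads per Egr1 read in HOXA9 OFF, against 1.91 and 1.49 in control.

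The remaining members gave no call. Atf3, which is induced by many stresses, was at 2.03 and 7.94 CPM in HOXA9 OFF and at 1.45 and 2.32 CPM in control. The second HOXA9 OFF library stood far above the other values while the first lay within the range of the controls, and the log2 fold change of 1.40 ± 0.63 missed the threshold (edgeR FDR = 0.141). Without the first HOXA9 OFF library it was 2.08 (edgeR FDR = 0.0270), and without the second it was 0.12. Ier2, a small nuclear protein gene, was at 73.2 and 58.4 CPM against 61.1 and 67.5 CPM, a log2 fold change of 0.04 ± 0.20 (edgeR FDR = 0.913) that became -0.046 when libraries were scaled by size alone.

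Marker sets of several cell types also differed between the HOXA9 OFF and control libraries. The 5 monocyte and macrophage markers, none at 0, summed to between 724 and 733 CPM in HOXA9 OFF and to between 74 and 120 CPM in control. The 5 neutrophil markers, none at 0, summed to between 273 and 551 CPM against 5.28 to 5.93 CPM. The 5 megakaryocyte and erythroid markers, with Hbb-b1 at 0 in both groups, summed to between 72.5 and 79.2 CPM against 23.7 to 24.4 CPM, with Itga2b and Gata1 called higher by edgeR. The 4 mast cell and basophil markers summed to between 240 and 306 CPM against 165 to 202 CPM, with none called. The 5 fibroblast and endothelial markers summed to between 420 and 444 CPM against 236 to 241 CPM, nearly all of it Pecam1, which was called higher, while Col3a1 and Cdh5 were at 0. The lymphoid gene Rag1 was at 0.0241 ± 0.0341 CPM against 4.34 ± 2.31 CPM and was called lower by edgeR. The part of these cell types in the results above was not tested. In bulk RNA, more cells of a type and more RNA per cell cannot be told apart.

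**Figure D2:**
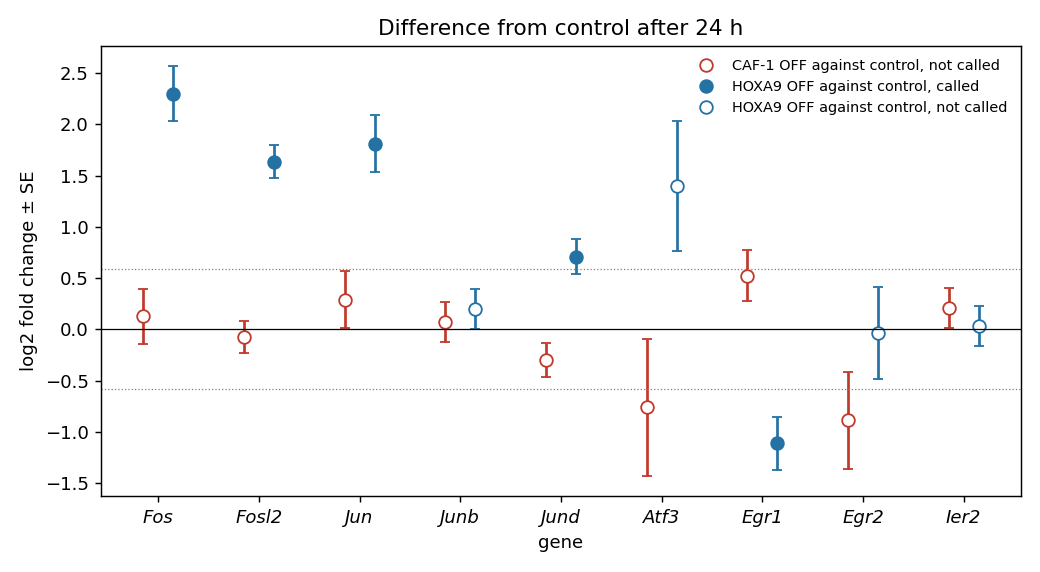
Log2 fold change from control (vertical axis, ± SE of the edgeR fit, 2 libraries per group) for the 9 tested members, in red for CAF-1 OFF and in blue for HOXA9 OFF, with filled points for called genes and dotted lines at 1.5-fold. Fos, Fosl2, Jun and Jund are filled above 0 and Egr1 is filled below 0 in HOXA9 OFF, whereas all red points are open.

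In CAF-1 OFF cells none of the 9 tested members was called against control (edgeR quasi-likelihood test). Few genes passed this test at all, 0.0241% of those tested being higher and 0.00803% lower. At an unadjusted p under 0.05, 0 of the 9 members stood beside 1330 of all genes, or 10.7%. The DESeq2 Wald test and the edgeR exact test also called 0 members. The median log2 fold change of the members was 0.07.

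Of the genes that rose in HOXA9 OFF, Fos, Fosl2 and Jun had CAF-1 OFF values within or near the range of the controls. Fos was at 9.66 and 6.58 CPM, overlapping the controls (log2 fold change 0.13 ± 0.27, edgeR FDR = 0.905). Fosl2 was at 34.1 and 38.5 CPM, within the range of the controls, with -0.07 ± 0.16 (edgeR FDR = 0.911). Jun, at 6.18 and 7.65 CPM, lay above both controls by a small margin, with 0.29 ± 0.28 (edgeR FDR = 0.764). Fosb was at 0.208 and 0.304 CPM, between the 2 controls.

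Jund and Egr1 lay outside the control range in the direction opposite to HOXA9 OFF, without passing the test. Jund was at 25.4 and 18.5 CPM, below both controls (log2 fold change -0.30 ± 0.17, edgeR FDR = 0.590). Egr1 was at 6.60 and 5.87 CPM, above both controls (0.52 ± 0.25, edgeR FDR = 0.513). Atf3, at 1.04 and 1.17 CPM, and Egr2, at 0.468 and 0.760 CPM, were each below both controls, with log2 fold changes of -0.76 ± 0.67 and -0.89 ± 0.47. These rest on 20 and 23 reads for Atf3 and 9 and 15 for Egr2. Junb, at 30.5 and 20.5 CPM, and Ier2, at 87.4 and 61.0 CPM, had the widest spread between the CAF-1 OFF libraries among the members with over 20 CPM, and their differences of 0.07 ± 0.20 and 0.21 ± 0.19 on the log2 scale were not called. In CAF-1 OFF, 0 of the 5 monocyte and macrophage markers and 0 of the 5 neutrophil markers were called against control by edgeR. Only 0.0241% of all genes tested were called higher and 0.00803% lower, so this count says little about these markers. The monocyte and macrophage sum of 169 to 280 CPM lay above the controls, mostly through Ly6c2 (126 ± 34.4 against 23.1 ± 8.25 CPM), while Emr1 was at 21.2 ± 5.67 against 30.1 ± 14.97 CPM. The neutrophil sum was 25.6 to 31.5 CPM, against 5.28 to 5.93 CPM in control, with S100a8 at 17.0 ± 0.563 against 2.42 ± 0.136 CPM. Mast cell and basophil markers summed to 229 to 586 against 165 to 202 CPM. Megakaryocyte and erythroid markers summed to 33.8 to 65.9 against 23.7 to 24.4 CPM, and fibroblast and endothelial markers to 286 to 308 against 236 to 241 CPM. The lymphoid sum, 8.86 to 11.6 CPM, lay within the control range of 4.75 to 12.3 CPM. The part of these cell types in the values above was not tested.

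CAF-1 OFF and HOXA9 OFF were then compared directly, since a call in one group and not in the other does not show that they differ. This comparison uses no control library, although the control libraries enter the common estimate of spread. Of the 9 tested members, 1 was higher and 5 were lower in CAF-1 OFF, while 9.56% of all genes tested were called higher and 12.6% lower. The member median was -1.01, against 0.00 over all genes tested.

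Relative to HOXA9 OFF, Fos was 4.50-fold lower in CAF-1 OFF cells (log2 fold change -2.17 ± 0.27, edgeR FDR = 0.00247), and Fosl2 was 3.27-fold lower (-1.71 ± 0.16, edgeR FDR = 0.00102). Jun was 2.87-fold lower (-1.52 ± 0.28, edgeR FDR = 0.00869) and Jund 2.01-fold lower (-1.01 ± 0.17, edgeR FDR = 0.00668). Egr1 was 3.10-fold higher (1.63 ± 0.26, edgeR FDR = 0.00547). In reads, this was 127 and 116 in CAF-1 OFF against 44 and 31 in HOXA9 OFF, although the HOXA9 OFF libraries were of similar depth. Unlike their calls against control, those of Jund and Egr1 held in every alternative in which they were tested, including each fit that left out a library.

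Atf3 was also called lower in CAF-1 OFF (-2.16 ± 0.66, edgeR FDR = 0.0478), but the call was near the threshold and the size of the difference rested largely on 1 library. Without the second HOXA9 OFF library, the one at 7.94 CPM, its log2 fold change was -0.88 (edgeR FDR = 0.309). The call was also lost without the first CAF-1 OFF library (-2.08, edgeR FDR = 0.156), the second (-2.22, edgeR FDR = 0.123), the first control library (-2.15, edgeR FDR = 0.0614) or the second (-2.15, edgeR FDR = 0.0601). Junb (-0.13 ± 0.20), Egr2 (-0.85 ± 0.47) and Ier2 (0.17 ± 0.20) were not called, with edgeR FDR of 0.662, 0.219 and 0.549.

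Levels were also summed over the genes of each family, as a description without a test. The 3 FOS genes together reached 34.2 and 37.7 CPM per kilobase in HOXA9 OFF, compared with 11.2 and 8.26 in control and 9.99 and 9.45 in CAF-1 OFF. The 3 JUN genes reached 36.4 and 37.6 CPM per kilobase in HOXA9 OFF, compared with 24.1 and 25.1 in control and 27.6 and 20.2 in CAF-1 OFF. The summed FOS level was thus below the summed JUN level in the control and CAF-1 OFF libraries and close to it in HOXA9 OFF. The pair of EGR genes summed to 0.969 and 0.981 CPM per kilobase in HOXA9 OFF, 1.84 and 1.62 in control and 2.27 and 2.12 in CAF-1 OFF.

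Shares of the family sums are given next. Junb, the most abundant JUN gene in control, supplied 54.9% and 54.4% of the JUN sum there and 43.7% and 39.6% in HOXA9 OFF, where Jund supplied 43.3% and 39.7%. Jun itself went from 7.61% and 6.82% in control to 13.0% and 20.7% in HOXA9 OFF, and lay at 7.02% and 11.9% in CAF-1 OFF. Within the FOS sum, Fosl2 remained the largest component in all 6 libraries, at between 52.3% and 69.5%, and Fosb supplied at most 1.12%. Of the EGR sum, Egr1 supplied 78.6% and 83.1% in control, 70.7% and 61.8% in HOXA9 OFF, and 93.9% and 89.4% in CAF-1 OFF.

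**Figure D3:**
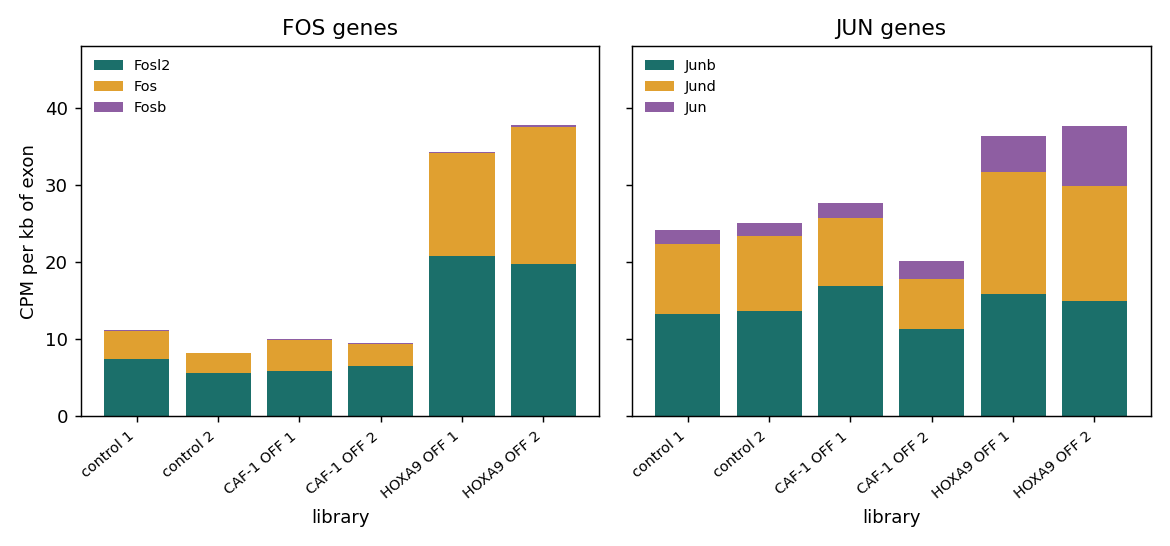
Stacked CPM per kilobase of exon (vertical axis, from 0) of the 3 FOS genes at left and the 3 JUN genes at right in each library. The HOXA9 OFF bars reach 34.2 and 37.7 for FOS genes and 36.4 and 37.6 for JUN genes, while the other 4 libraries stay at or below 11.2 and 27.6.

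The order of levels per kilobase changed accordingly. In HOXA9 OFF, Ier2 stayed highest at 43.3 ± 6.87, followed by Fosl2 at 20.3 ± 0.759, which had been behind Junb and Jund in control. Fos at 15.5 ± 3.10, Junb at 15.4 ± 0.719 and Jund at 15.3 ± 0.570 could not be ordered, as their libraries overlapped. Jun at 6.25 ± 2.16 and Atf3 at 2.51 ± 2.11 came next, then Egr1 at 0.646 ± 0.0555, Egr2 at 0.329 ± 0.0641 and Fosb at 0.168 ± 0.128. In CAF-1 OFF the order of the means was that of control, but Jund at 7.62 ± 1.68 overlapped Fosl2 at 6.20 ± 0.532, and Jun at 2.17 ± 0.325 overlapped Egr1 at 2.01 ± 0.165.

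Other genes of the pathway were taken from fixed lists and described by counts. Among 12 tested AP-1 and ATF genes outside the members, 2 rose and 0 fell in HOXA9 OFF against control, with a median log2 fold change of 0.01. This count is near the 13% of all genes tested that were higher. Jdp2, which encodes a JUN-binding repressor of AP-1, was at 63.2 ± 1.58 CPM against 23.4 ± 1.02 CPM in control (edgeR log2 fold change 1.43, FDR = 0.00123). Mafg, a small MAF protein gene, went from 98.3 ± 13.3 to 149 ± 10.9 CPM (0.60, edgeR FDR = 0.0134). Of the EGR genes Egr3 and Egr4 and the EGR corepressor genes Nab1 and Nab2, only the NAB genes had enough reads to be tested, and neither was called in HOXA9 OFF against control.

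Among the other immediate early genes, increases outnumbered decreases. In HOXA9 OFF, 8 of 25 tested were higher and 1 was lower than in control, with a median log2 fold change of 0.59. Increases also outnumbered decreases over all genes tested, at 13% against 8.97%. Klf2, a Krüppel-like factor gene associated with quiescence, went from 0.302 ± 0.0170 to 10.3 ± 2.71 CPM (5.06, edgeR FDR = 0.000803). Zfp36 and Zfp36l1, whose products destabilise AU-rich mRNAs, rose by 2.24 and 2.40 on the log2 scale (edgeR FDR = 0.00175 and 0.00151). Socs3, a feedback inhibitor of cytokine signalling, rose by 2.21 (edgeR FDR = 0.00862). The gene that fell was Myc, from 566 ± 23.0 to 300.8 ± 6.92 CPM (-0.91, edgeR FDR = 0.00139).

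Genes known as feedback outputs of ERK signalling were mostly lower in HOXA9 OFF. In HOXA9 OFF, 9 of 11 were lower and 1 was higher than in control, and the median log2 fold change was -1.79. Over all genes tested, 8.97% were lower and 13% were higher. Dusp6, an ERK phosphatase gene, went from 257.8 ± 60.8 to 34.6 ± 6.29 CPM (-2.89, edgeR FDR = 0.000475). Spry4, an inhibitor of RAS signalling, went from 41.5 ± 4.83 to 1.76 ± 1.20 CPM (-4.60, edgeR FDR = 0.000670), and Etv4, an ETS factor gene, from 18.3 ± 4.31 to 1.14 ± 0.449 CPM (-4.03, edgeR FDR = 0.00137). Dusp4 was called lower as well, from 5.39 ± 0.649 to 0.230 ± 0.189 CPM. The exception was Dusp5, another ERK phosphatase gene, at 88.0 ± 27.4 CPM against 16.2 ± 7.16 CPM (2.45, edgeR FDR = 0.00553). Against HOXA9 OFF, 9 of the 11 were higher and 1 was lower in CAF-1 OFF, beside 9.56% and 12.6% of all genes tested.

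Genes upstream of the members were called at shares near those of all genes tested, which were 13% higher and 8.97% lower. Of 17 tested kinases and factors, 3 were higher in HOXA9 OFF than in control and 2 were lower. The higher ones were Mapk3, which encodes ERK1 (log2 fold change 1.01), Braf (0.97) and the SRF coactivator gene Mkl1 (0.80). The lower ones were Kit, the SCF receptor gene (-1.16, edgeR FDR = 0.00366), and Creb1 (-0.60, edgeR FDR = 0.0123). Srf itself was not called, at 154.8 ± 13.3 against 140.5 ± 4.95 CPM (log2 fold change 0.14, edgeR FDR = 0.381).

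Among 12 tested genes commonly listed as AP-1 or EGR targets, 5 were higher and 1 was lower in HOXA9 OFF than in control. Their median log2 fold change was 1.49. For all genes tested the shares were 13% higher and 8.97% lower. Mmp9, a matrix protease gene, went from 1.38 ± 0.718 to 9.91 ± 5.44 CPM (2.81, edgeR FDR = 0.00853) and Spp1, the osteopontin gene, from 19.2 ± 0.0881 to 101 ± 54.3 CPM (2.40, edgeR FDR = 0.00387). Il1b was called at low levels, from 0.176 ± 0.0846 to 0.901 ± 0.159 CPM. Plaur (1.49) and Tnf (1.71) completed the increases. Ccnd1, which encodes cyclin D1, was lower, at 2.21 ± 0.214 against 9.13 ± 4.25 CPM (-2.03, edgeR FDR = 0.0345). Several of these genes are also expressed in mature myeloid cells, whose markers were at higher summed levels in the same libraries. The part of such cells in the levels of these genes was not tested.

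Of 7 tested heat shock and stress genes, 0 were higher and 2 were lower in HOXA9 OFF than in control, Trib3 (-1.97, edgeR FDR = 0.0324) and Hsp90aa1 (-0.65, edgeR FDR = 0.00365) (edgeR quasi-likelihood test). Of all genes tested, 13% were higher and 8.97% lower in the quasi-likelihood test. For these 7 genes, the DESeq2 Wald test and the edgeR exact test each called 0 higher and 3 lower. Dnajb1, a heat shock gene, was at 67.4 ± 1.37 against 69.0 ± 4.71 CPM and was not called (log2 fold change -0.03). The part of the PBS washes, done 24 h before collection, in the results above was not tested.

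In CAF-1 OFF against control, 0 genes of these lists were called by the edgeR quasi-likelihood test. At an unadjusted p under 0.05 there were 2 of 12 other AP-1 and ATF genes, 1 of 25 other immediate early genes, 1 of 17 upstream genes, 4 of 12 targets, 2 of 7 heat shock and stress genes, 0 of 11 ERK feedback genes and 0 of 2 NAB genes. Over all genes tested the share was 10.7%. The DESeq2 Wald test called 0, and the edgeR exact test called 1, the target Il1b. The median log2 fold changes were -0.04 for other AP-1 and ATF genes, 0.14 for other immediate early genes, 0.27 for ERK feedback genes, 0.57 for targets, -0.05 for upstream genes and -0.09 for heat shock and stress genes.

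In CAF-1 OFF against HOXA9 OFF the same lists were counted beside the 9.56% of all genes tested that were higher and the 12.6% that were lower. Among the other immediate early genes, 1 of 25 was higher (Myc, log2 fold change 0.79) and 7 were lower, led by Klf2 (-4.32), Klf6 (-1.95), Zfp36l1 (-1.92) and Zfp36 (-1.68). Of the 9 ERK feedback genes that were higher, Spry4 (4.59), Etv4 (4.15) and Dusp6 (3.13) differed most beside Dusp4, which was at 6.51 ± 5.41 CPM against 0.230 ± 0.189 CPM, and the lower one was Dusp5 (-2.11). Hmox1 (-2.52), Mmp9 (-2.27), Spp1 (-2.24) and Plaur (-0.90) were the 4 of 12 targets that were lower, and 0 were higher in edgeR, DESeq2 or the exact test.

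Of 12 other AP-1 and ATF genes, Jdp2 was called lower (-1.57) and Maff, a small MAF gene, was called higher (1.14) in CAF-1 OFF. The EGR corepressor gene Nab1 was lower (-0.61). Upstream, Kit (1.40) and Creb1 (0.72) were higher, whereas Mapk3 (-1.06), Mkl1 (-0.85), Mkl2 (-0.85) and Map2k1 (-0.67) were lower, out of 17. Hsp90aa1 (0.59) was the 1 of 7 heat shock and stress genes called.

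**Figure D4:**
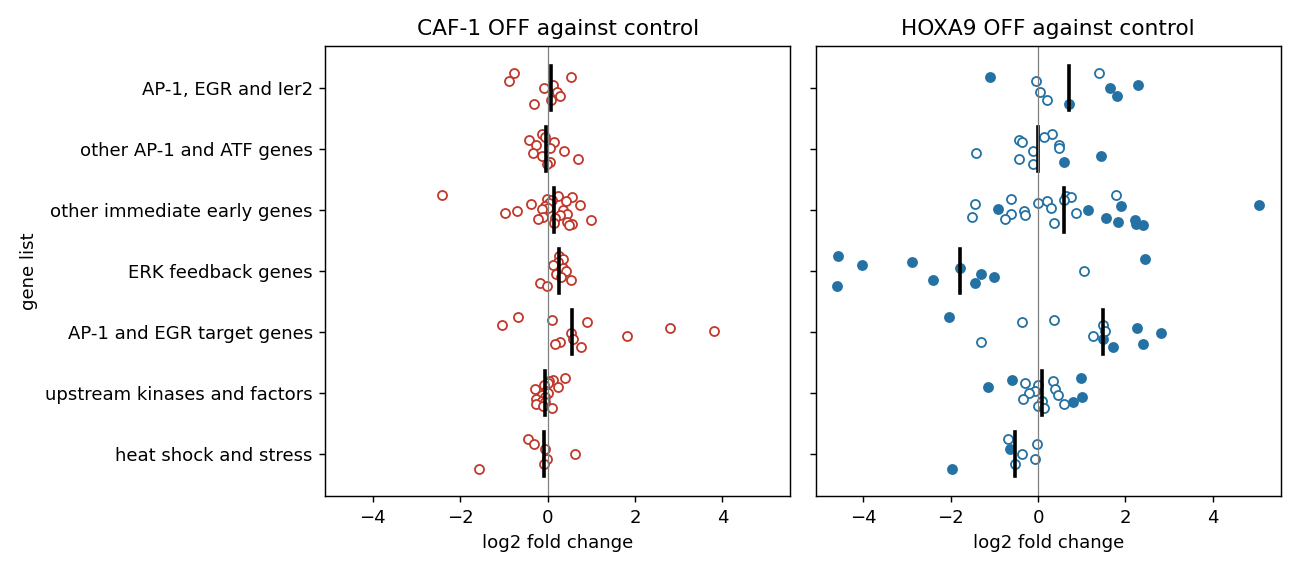
Log2 fold change from control (horizontal axis) of each tested gene in 7 lists, CAF-1 OFF at left and HOXA9 OFF at right, with filled points for called genes and black bars for list medians. The HOXA9 OFF medians lie at 0.71 for the AP-1, EGR and Ier2 genes and at -1.79 for the ERK feedback genes, and no point is filled for CAF-1 OFF.

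The genes with the pattern most like that of a member were found by the root mean square difference in log2(CPM + 0.5), centred on each gene's mean, over 6 libraries and among 9615 genes. For Fos the closest was Cd68, a macrophage lysosomal gene, with a difference of 0.109. It lay between 4.24 and 6.09 CPM in control, between 4.30 and 8.11 in CAF-1 OFF and between 23.7 and 33.3 in HOXA9 OFF. The gene 9030617O03Rik (0.203) and Hdc (0.204), the histidine decarboxylase gene, followed. For Jun they were Zc3h12c (0.116), Dhrs3 (0.119) and Heatr7a (0.149). The genes closest to Egr1 were Fam185a (0.0917), Klhl23 (0.101) and Kdelc1 (0.104), and those closest to Ier2 were 3110056K07Rik (0.0401), Ndufb7 (0.0421) and Csnk1e (0.0477). With only 6 libraries in 3 groups many genes share such a pattern, and the closeness is a description.

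The genes lie on 8 chromosomes of the NCBIM37 (mm9) build. Fos spans chr12:86814840-86818223, Fosl2 chr5:32438845-32460204, Fosb chr7:19888070-19895394 and Jun chr4:94715725-94718913. Junb (chr8:87500811-87502617), Ier2 (chr8:87185230-87186751) and Jund (chr8:73221638-73224515) share chromosome 8, and Junb and Ier2 have a single exon. Atf3 spans chr1:192994175-193007219, Egr2 chr10:66998223-67004936 and Egr1 chr18:35020861-35024638. The annotation places BC042782 across Jun, Gm11175 across Jund and Gm17507 across Egr1, each on the opposite strand. The library kit marked strand, but the strand setting of the counting was not given in the sources used here. These 3 members are therefore less certain than the rest.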

How the data were processed

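Per the labels and methods, reads were mapped to mm9 by STAR, and HTSeq-count tallied them. The authors deposited the raw counts, listed by gene symbol and not normalized. Tally lines for reads outside genes were left out of library sizes, with between 5.95 and 8.26 such reads without a feature per 100 gene counts. The analysis used edgeR 4.0.16 under R 4.3.3. filterByExpr kept 12460 genes, TMM factors ran from 0.954 to 1.03, and 1 quasi-likelihood fit with a mean for each group held all 6 libraries. The Benjamini-Hochberg FDR was taken over all genes tested. Calls needed a 1.5-fold change and an FDR under 0.05, the cutoffs of the study. SEs come from the F statistic. CPM per kilobase used exon lengths of GENCODE on NCBIM37, available for 98.4% of tested genes. SDs and SEs carry the spread between libraries, while the floor of 3 reads covers counting error only. The script was tested on simulated data.

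The members and lists were chosen with earlier results of these data known. From each list, called genes were named, up to the 4 with the largest change per comparison. Myc, Dusp5, Creb1, Map2k1, Srf, Plaur, Tnf and Dnajb1, and the motif TGACG, were chosen after their values were seen. Alternatives were DESeq2 1.42.0, the exact test, other scalings, filters and cutoffs, a replicate block, 4-library fits and leaving out each library.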

Additional observations from a re-analysis of the deposited data

Results flagged for a closer look

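Jund and Egr1 stood out because the CAF-1 OFF libraries lay on one side of both controls and the HOXA9 OFF libraries on the other, and the direct comparison of CAF-1 OFF with HOXA9 OFF was called in the edgeR quasi-likelihood test. Jund had a log2 fold change of -1.01 between these groups, and Egr1 had one of 1.63. The CAF-1 OFF side of each pattern was not called against control on its own.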

How the results depend on the processing

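With 2 libraries per group the calls near the threshold depend on single libraries. Fos, Fosl2 and Jun kept their calls in 14 of 14 alternatives in HOXA9 OFF against control and against CAF-1 OFF. In HOXA9 OFF against control, the members called went from 5 to 3 at 2-fold and FDR under 0.01, and all genes called from 2740 to 987. In CAF-1 OFF against HOXA9 OFF, all genes called went from 2755 to 948 under that rule. The members called in CAF-1 OFF against control were 0 throughout, while all genes called went from 4 to 378 with no filter, 9 in a fit to the 4 libraries, 0 at the stricter rule, 243 with the exact test and 192 with DESeq2.

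With the replicate number as a block, the comparison of CAF-1 OFF with control gave 2 calls over all genes, and 71 with the numbers crossed, an alternative chosen after seeing the data because same-numbered libraries of these groups correlated at -0.24. That correlation was 0.48 for HOXA9 OFF and control and 0.034 for CAF-1 OFF and HOXA9 OFF. The block left the calls among members at 0, 5 and 6. The labels do not say that numbers pair the cultures.

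Leaving out each library in turn gave 0 to 10 calls over all genes for CAF-1 OFF against control, 1602 to 2840 (3 to 5 members) in HOXA9 OFF against control, and 1711 to 2718 (5 to 6 members) in CAF-1 OFF against HOXA9 OFF. Uncalled members changed sign in some of these fits. In CAF-1 OFF against control, log2 fold changes ranged from -0.18 to 0.40 for Fos, -0.25 to 0.16 for Fosl2, -0.25 to 0.35 for Junb and -0.079 to 0.46 for Ier2. In HOXA9 OFF against control they ranged from -0.26 to 0.25 for Egr2 and -0.14 to 0.19 for Ier2, which was -0.046 with library size alone. In CAF-1 OFF against HOXA9 OFF they ranged from -0.44 to 0.15 for Junb and -0.11 to 0.43 for Ier2. Atf3 kept its call in 6 of 13 alternatives there and was called in 2 of 13 in HOXA9 OFF against control. Fosb, tested with no filter, was not called (edgeR FDR 0.948, 0.575 and 0.348). A fit without 1 library leaves 1 in its group, which is assumed to vary like the others.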
